A study of Mus with 4 samples.

Results

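Phldb2, Oxsr1 and Gse1 are the 3 protein-coding genes, of 10037 longer than 20 kb and 21883 in all, that held a summit of TBX3 binding score above 28 lying more than 10 kb from both of their annotated ends. The members were picked by that score, which came from the same profile described here, so the summit scores and their height over the promoters of the same genes are given as a description, without a test. Chromatin immunoprecipitation and sequencing (ChIP-Seq) had been done with an anti-HA antibody on primary mouse hepatocytes, the main epithelial cells of the liver, which carried the construct labelled pT2-SVNeo-EF1-eGFP-P2A-Tbx3-HA. The labels list 2 TBX3 ChIP and 2 Input libraries (sonicated chromatin without immunoprecipitation), and all 4 came from cells with this construct. It is a transposon in which an EF1 promoter, active in most cell types, drives eGFP together with HA-tagged TBX3, and it carries a neomycin resistance gene, so that the cells could be selected with the drug G418. The antibody therefore read tagged, overexpressed TBX3 in selected cultured cells, and no library from cells without the construct, and no IgG library, was analysed here. The labels give no age, sex or strain of the animals, and a binding profile holds no expression values by which the cell type could be checked.

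TBX3 is a T-box transcription factor that is best known as a repressor, and in the liver it is expressed around the central vein, where Wnt signalling is active. Factors of this kind can bind next to the start of a gene or at enhancers and silencers, which often lie within the body of the gene they regulate or of a neighbour. PHLDB2, also called LL5-beta, is a protein of the inner face of the plasma membrane that gathers microtubule-attaching CLASP proteins at the cell cortex near sites of adhesion. OXSR1 is a kinase that is switched on by the WNK kinases and phosphorylates the cation-chloride cotransporters, which move salt into and out of the cell. GSE1 is a coiled-coil nuclear protein found with the KDM1A-CoREST complex, which removes methyl and acetyl groups from histones. The 3 proteins thus act in different processes.

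The data were 1 score for every base of the genome, the −log10 of the p-value that MACS2 computed for the ChIP reads against the level expected from Input. Each further unit of score therefore stands for a p 10 times lower at that base, before any correction for the number of bases. The profile does not name the libraries that entered it and holds 0 values per library, so nothing below could be set against the spread between replicates. Each score was resolved into the number of overlapping ChIP reads (the pileup) and the expected number, which was 2.43 reads wherever Input gave no higher level, and the intervals printed are exact 95% Poisson intervals that cover counting error only. Whether both mates of a read pair were counted as reads is not known, and with each pair taken once the summit scores of Phldb2, Oxsr1 and Gse1 given below would be 18.4, 15.96 and 14.8. Called regions are stretches of at least 200 bp with a score of at least 5, and there were 125 of them in the genome. That number depended on the limits, with 773 at a score of 3, 29 at a score of 10 and 640 at a minimum length of 100 bp, and the ranks and counts of regions given below hold for the 125. The promoter score of a gene was read as its maximum over 2 windows, 1 kb to each side of the lower and of the higher end of its annotated extent, because the gene table used here gives both ends of a gene but not its strand, exons or transcription starts. For the same reason no summit could be placed in an exon, an intron or a UTR.

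The site with the highest summit score of the 3 lay in Phldb2, on chromosome 16 of GRCm38. The gene (gene ID 208177) runs from 45746230 to 45953598, over 207369 bp, and the summit at 45759011 lay 12781 bp from its lower-coordinate end and 194587 bp from its higher-coordinate end, at 6.16% of its length. The score there was 34.7, made by 40 overlapping reads where 2.43 were expected, an enrichment of 16.4-fold (11.7 to 22.4). Within 1 kb of the lower-coordinate end the score reached 3.02, from 8 reads, 3.29-fold over the expected level. At the higher-coordinate end it reached 1.37, from 5 reads against 2.505 expected. The summit thus stood 31.7 score units above the higher of the 2 ends, and its pileup was 5.0 times as high.

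Oxsr1 (gene ID 108737) spans 84253 bp of chromosome 9, from 119238432 to 119322684. Its summit at 119265982 was the most central of the 3 for the length of its gene, 27550 bp from the lower-coordinate end and 56702 bp from the other, at 32.7% of the gene. The score was 29.9 and the pileup 36 reads against 2.43 expected, 14.8-fold (10.4 to 20.5). Within 1 kb of its ends the score reached 1.42, from 5 reads (2.05-fold), on the lower-coordinate side and 1.90, from 6 reads (2.46-fold), on the higher-coordinate side. The difference between summit and promoter was 27.96 score units, and the ratio of the pileups was 6.0.

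Gse1 (gene ID 382034) was the longest of the 3 genes, with 352883 bp of chromosome 8 from 120228501 to 120581383. Its summit at 120536978 lay 308477 bp from the lower-coordinate end and 44405 bp from the higher-coordinate end, at 87.4% of the gene. There the score was 28.7, with 35 reads against 2.43 expected, 14.4-fold (10.0 to 19.99). Both ends of Gse1 had a promoter score of 1.90 from 6 reads each, so the summit was 26.8 score units higher and its pileup 5.83 times as high.

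**Figure D1:**
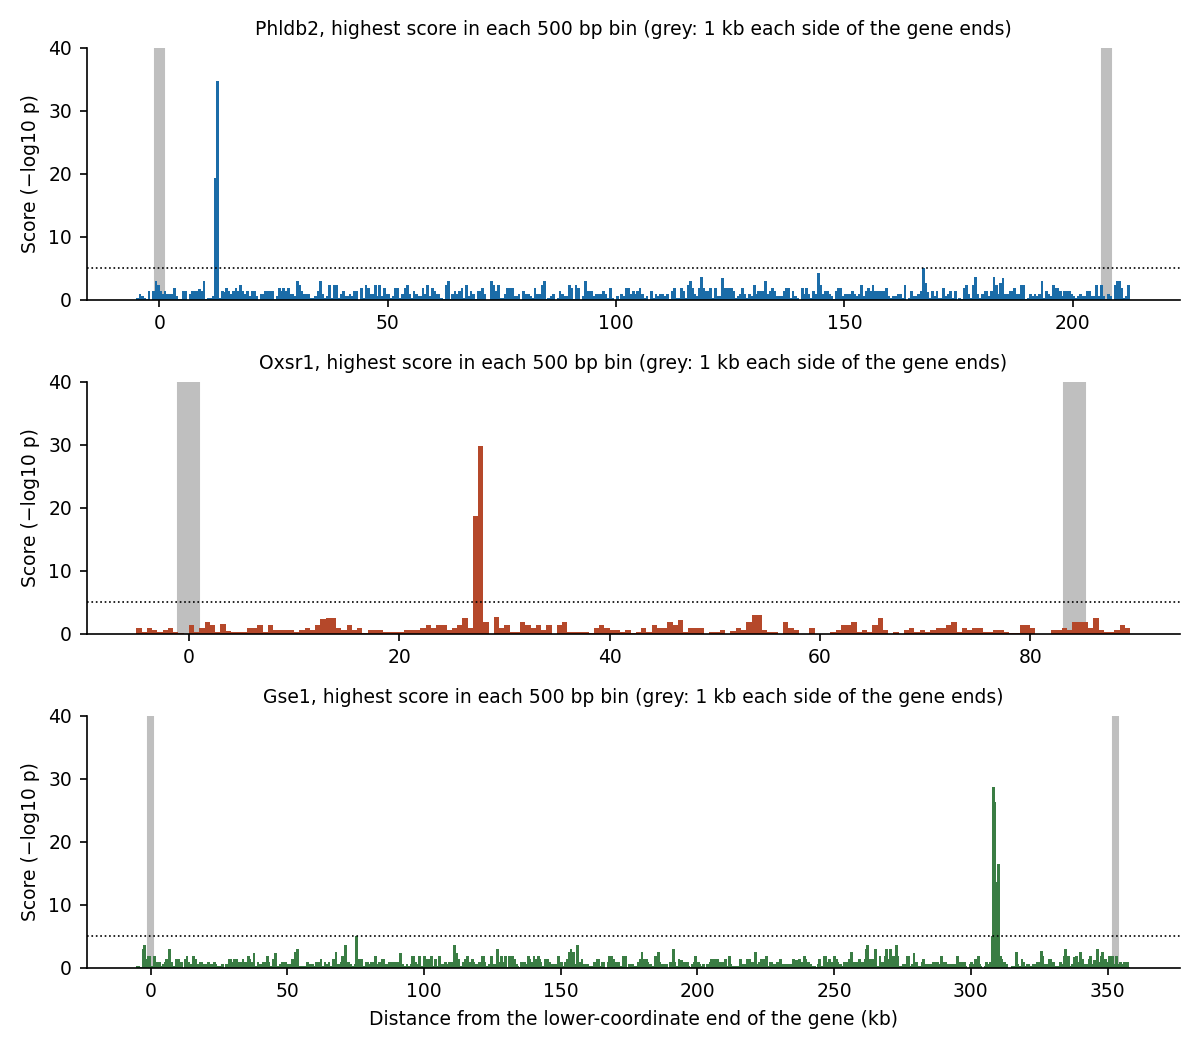
Score (−log10 p) along Phldb2, Oxsr1 and Gse1 by distance from the lower-coordinate end in kb, as the highest score of each 500 bp bin, with 1 kb on each side of the gene ends in grey and a dotted line at a score of 5. Each gene shows 1 site far above the rest of its length, at 34.7, 29.9 and 28.7, while the windows at the ends stay at or below 3.02.

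The order of the 3 summits, Phldb2 over Oxsr1 over Gse1, was not resolved by the read numbers. The Poisson intervals of the pileups ran from 28.6 to 54.5 reads for Phldb2, from 25.2 to 49.8 for Oxsr1 and from 24.4 to 48.7 for Gse1, and each held the other 2 values. Put back on the score scale, the interval was 20.8 to 54.2 for Phldb2, 17.6 to 47.5 for Oxsr1 and 16.5 to 46.2 for Gse1. The 8 reads at the lower-coordinate end of Phldb2, the highest pileup at an end of any member, had an interval of 3.45 to 15.8 reads. The pick placed the summits above 28 and set no limit on the promoters. The height of the summits over the promoters is therefore not read as a result.

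The promoter score of Phldb2 was above the median of 2.44 over all protein-coding genes, and those of Oxsr1 and Gse1 were below it. For Phldb2 this held at the lower-coordinate end only, as the other end reached 1.37. Which end holds the start was not known here. A promoter score at least as high as that of Phldb2 was found in 6349 protein-coding genes (29.0%, 95% Wilson interval 28.4 to 29.6), and one at least as high as that of Oxsr1 and Gse1 in 16305 (74.5%, 73.9 to 75.1). In all, 788 of the 21883 genes (3.6%) had a promoter score of at least 5, and none of the 3 members was among them. Averaged over the 2001 bp window at each end, the pileup of the members was at or below the expected level at each of the 6 ends. The expected level never falls under 2.43 reads, and the means over the rest of each gene, given below, were under theirs too. These means are therefore not read as a lack of signal particular to the ends. In Phldb2 it was 2.43 reads against 2.93 at the lower-coordinate end and 1.23 against 2.54 at the other. In Oxsr1 these means were 0.776 against 2.89 and 1.94 against 2.44, and in Gse1 0.795 against 2.64 and 1.88 against 3.16.

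The called regions around the summits differed in shape. In Oxsr1 the region was a single peak of 331 bp, from 119265854 to 119266184, and the pileup held at least 50% of its summit value over 245 bp. In Phldb2 the region was 491 bp long, from 45758651 to 45759141, and it had a second summit 234 bp below the first. That shoulder, at 45758777, scored 27.1 with 34 reads against 2.505 expected, 13.6-fold, and between the 2 summits the pileup fell to 18 reads with a score no lower than 8.51. The main summit of Phldb2 was the narrowest of the 3, with 207 bp at 50% of the pileup or more. In Gse1 the region was 745 bp long, from 120536716 to 120537460, which made it the longest of the 23 called regions that lay more than 10 kb inside a gene and the fourth longest of all 125. Its main summit was 344 bp wide at the same level.

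The Gse1 site was a cluster rather than a peak. Within 3 kb of the main summit there were 5 further summits that scored at least 5, each over an expected level of 2.43 reads. All rose at least 5 reads above their surroundings. The first above the main summit lay 424 bp away at 120537402, in the same called region, scoring 18.6 from 26 reads (10.7-fold). The next strong ones lay at 120538072, 1094 bp away, with a score of 13.6 from 21 reads (8.63-fold), and at 120538687, 1709 bp away, with a score of 16.5 from 24 reads (9.86-fold). The latter formed a called region of its own, of 402 bp from 120538434 to 120538835, whereas the run at 120538072 was 193 bp long and so too short to be called. The remaining 2 were weak, 504 bp below the main summit with a score of 5.01 from 11 reads and 663 bp above it with a score of 5.75 from 12 reads. Between neighbouring summits the pileup fell to 2, 11, 6, 0 and 5 reads in order of position, so the signal returned to or below the expected level in places.

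**Figure D2:**
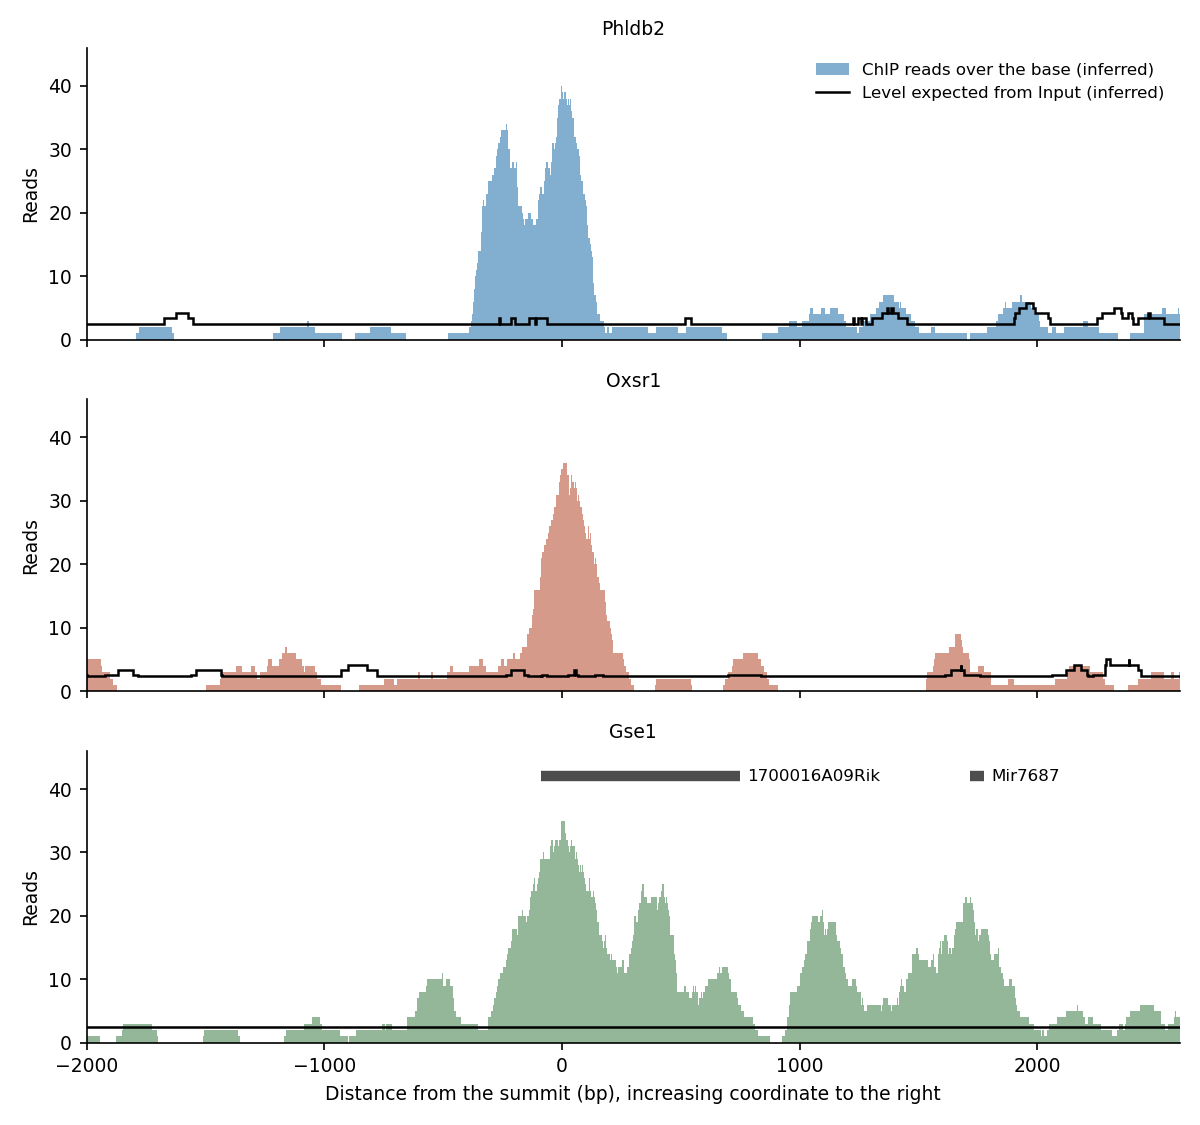
Inferred ChIP pileup and expected level (overlapping reads) by distance in bp from the highest summit of Phldb2, Oxsr1 and Gse1, with bars over the Gse1 panel for the noncoding genes 1700016A09Rik and Mir7687. Oxsr1 has 1 peak of 36 reads, Phldb2 has a shoulder of 34 reads beside its summit of 40, and Gse1 has several peaks, the farthest strong one of 24 reads lying 1709 bp above its summit of 35.

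Gse1 had the lowest summit score but the most coverage around its summit. No interval was computed for this coverage, so its order was not set against counting error. In the 1001 bp centred on the summit, coverage equal to 117 reads of 150 bp lay at Gse1, against 16.2 expected (7.18-fold). At Phldb2 it was 92.7 against 16.9 (5.49-fold) and at Oxsr1 69.3 against 16.7 (4.15-fold). By score the regions of Phldb2, Oxsr1 and Gse1 were ranked 4, 7 and 10 of 125, ties sharing the better rank, but by length 19, 56 and 4. In 114 regions the summit could be resolved into a pileup, and among these the members were ranked 4, 7 and 9 by fold. By width at 50% of the pileup they were ranked 102, 86 and 46 of the 114, whose median width was 311.5 bp.

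The inferred pileups rose and fell in small steps. The pileup changed 136 times across the Phldb2 region, 85 times across the Oxsr1 region and 169 times across the Gse1 region. Of these changes 97.1%, 94.1% and 94.7% were by 1 read, and no single change exceeded 2 reads. The pileups were chosen to change as little as possible along the sequence, which favours small steps. Nothing is therefore read from the step sizes. The Input-derived level stayed low, at no more than 3.34 reads within the regions of Phldb2 and Oxsr1 and at 2.43 throughout that of Gse1.

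The summit of Oxsr1 lay far from any other annotated gene, the nearest end being that of the pseudogene Slc22a13b, 34290 bp away. For Phldb2 the nearest end other than its own was that of Abhd10, a neighbouring protein-coding gene, at 16056 bp. Abhd10 had a promoter score of 1.42 and a highest score within the gene of 1.84. Past the other end of Phldb2, Plcxd2, which starts or ends 5662 bp from it, had 3.65 and 8.98. The same highest score of 8.98 was found in Gm15638, a noncoding RNA gene that shares 7993 bp with Phldb2 and runs past that end. The Gse1 summit instead lay inside a second gene, the 835 bp long noncoding RNA gene 1700016A09Rik, which runs from 120536892 to 120537726, and was 86 bp from its lower-coordinate end. The separate summit at 120538687 was 9 bp from Mir7687, a microRNA gene of 59 bp from 120538696 to 120538754. The Gse1 regions were therefore far from the annotated ends of Gse1 but next to the ends of 2 noncoding genes. They were 2 of only 4 among the 23 interior regions that lay within 1 kb of an end of any annotated gene. The annotation lists 16 transcripts for Phldb2, 5 for Oxsr1 and 11 for Gse1. Whether any of these starts inside its gene, near a summit, was not known here. An interior region was held by 23 of the 10037 genes long enough to have one (0.229%), and an interior score above 28 by 3 (0.0299%), the measure by which the members were picked and from which nothing is read.

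Away from the sites, scores in the 3 genes were low. Outside 3 kb on each side of the summit the mean score was 0.381 in Phldb2, 0.259 in Oxsr1 and 0.267 in Gse1, where the means of their chromosomes were 0.333, 0.268 and 0.332. The mean pileup there was 1.81 reads against 2.75 expected in Phldb2, 1.25 against 2.60 in Oxsr1 and 1.31 against 2.76 in Gse1. Between 31.9% (Phldb2) and 44.6% (Gse1) of these bases carried no ChIP read. The highest score left was 5.01 in Phldb2, from 11 reads at 154669 bp from the summit, 3.02 in Oxsr1, from 8 reads at 26432 bp, and 5.01 in Gse1, from 11 reads at 233093 bp. Over the whole genes, sites included, 513 bases of Phldb2 (0.247%), 331 of Oxsr1 (0.393%) and 1405 of Gse1 (0.398%) had a score of at least 5.

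Cutting each gene into windows of 2001 bp, the width of a promoter window, gave the same picture. In Phldb2 the median of 103 windows was 1.90 and 13 of them (12.6%) were as high as the promoter. In Oxsr1 the median of 42 windows was 1.42 and 13 (31.0%) reached the promoter, and in Gse1 the median of 176 was 1.42 and 66 (37.5%) did so. The promoters of Oxsr1 and Gse1 were thus no higher than many windows inside their own genes. A single window in each gene exceeded 28. The second highest reached 5.01 in Phldb2 and 3.02 in Oxsr1, but 16.5 in Gse1, where it held the neighbouring summit.

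**Figure D3:**
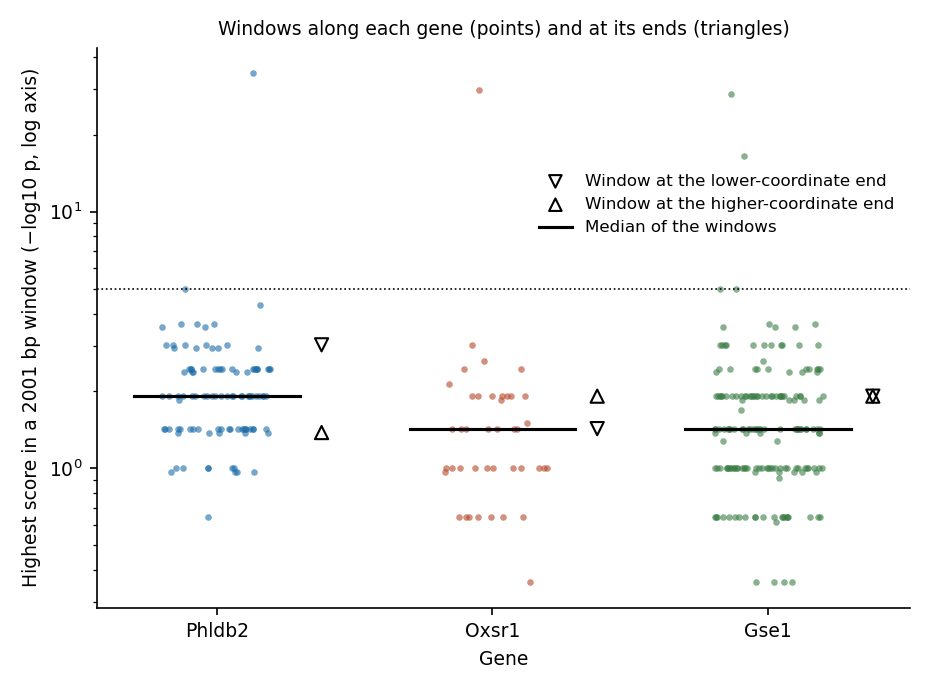
Highest score (−log10 p, log axis) of consecutive 2001 bp windows along Phldb2 (103 windows), Oxsr1 (42) and Gse1 (176), 1 point per window, with a line at the median, triangles for the windows at the gene ends and a dotted line at a score of 5. In each gene 1 window lies above 28, and 13, 13 and 66 windows are at or above the higher triangle.

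Shorter rises were scattered along the genes. Runs with a score of at least 3 numbered 14 in Phldb2, 2 in Oxsr1 and 23 in Gse1. All but 1 in Phldb2, all but 1 in Oxsr1 and all but 4 in Gse1 lay outside the sites, and the longest of those outside were 147, 22 and 104 bp long, shorter than 1 extended read of 150 bp. None of them scored above 5.01. A score averaged over the whole gene did not single the members out either. It was 0.421 in Phldb2, a level that 10.4% of genes longer than 20 kb reached, 0.343 in Oxsr1 (50.2%) and 0.321 in Gse1 (63.6%).

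Genes of like length, from 0.5 to 2 times that of a member, had a median interior score of 4.89 for the 1995 around Phldb2, 3.65 for the 4491 around Oxsr1 and 5.01 for the 1042 around Gse1. They are given as a background, since how few genes matched the members was fixed by the threshold of 28.

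The genes just outside the rule showed where its threshold fell. The next interior summit after Gse1 was in Ltbp1, a gene for a latent TGF-beta binding protein, at 75110807 on chromosome 17, with a score of 23.7 from 31 reads against 2.505 expected and a promoter score of 0.999. Ltbp1 too had a called region, of 313 bp, and a low promoter score, and no other gene had its highest interior score between that 23.7 and the 28.7 of Gse1. After it came A830018L16Rik with 19.4 and Tmeff2 with 18.6, the latter a gene for a transmembrane protein. The A830018L16Rik summit stayed at a score of at least 5 over 74 bp and made no called region, while that of Tmeff2 did so over 518 bp. On the side of distance, 5 other genes held a score above 28 but closer to an end, namely Clk4 at 65 bp, Haus8 at 111 bp, Slx4ip at 319 bp and BC049762 at 483 bp. The other was Stab2, the gene of a scavenger receptor, whose summit of 77.01 lay 4343 bp from its nearer end.

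The breadth of the highest interior scores varied. Among the 30 genes with the highest interior scores, 27 were not members, and in 11 of these the run at a score of at least 5 was 66 to 86 bp long, shorter than 1 extended read, and 0 of the 11 had a called region. The other 16 had a run of at least the length of a read, and 12 had a called region, among them Cmss1 and Filip1l, which share the same summit. Breadth was not particular to the members, since the run of Tmeff2 (518 bp) was longer than those of Phldb2 and Oxsr1, and those of Txnrd1 (390 bp) and Snx29 (343 bp) were longer than that of Oxsr1. By width at 50% of the pileup, Tmeff2 (518 bp), Txnrd1 (414 bp), Snx29 (404 bp) and Pard3 (348 bp) exceeded all 3 members. Runs were measured without joining gaps, whereas called regions join gaps of up to 30 bp. As a called region, that of Txnrd1 (592 bp) was longer than that of Phldb2 too. The called regions of Phldb2 (491 bp), Oxsr1 (331 bp) and Gse1 (745 bp) were as long as their runs. All 3 were longer than the 315 bp that was the median length of the called regions.

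**Figure D4:**
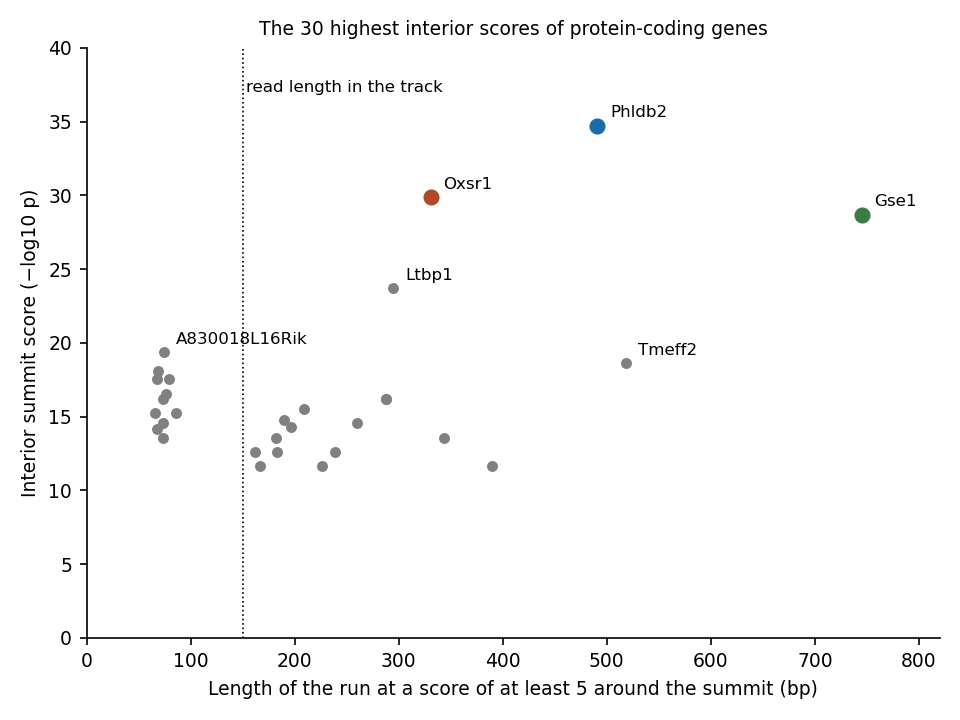
Interior score (−log10 p) against the length in bp of the run with a score of at least 5 around the summit, for the 30 protein-coding genes with the highest interior scores, with a dotted line at the read length of 150 bp. Phldb2, Oxsr1 and Gse1 lie at the highest scores with runs of 491, 331 and 745 bp, while 11 other genes have runs of 66 to 86 bp, shorter than a 150 bp read.

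The genes that the study examined most closely had their signal near an end. E2f7, a cell cycle repressor, had a score of 22.8 within 1 kb of an end and an interior score of 3.45. E2f8, its close relative, had 15.5 within 1 kb of an end but no more than 4.31 within the gene itself. With 15645 bp, E2f8 was too short to have bases more than 10 kb from both ends, so only E2f7 could be set beside the members on both measures.

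**Figure D5:**
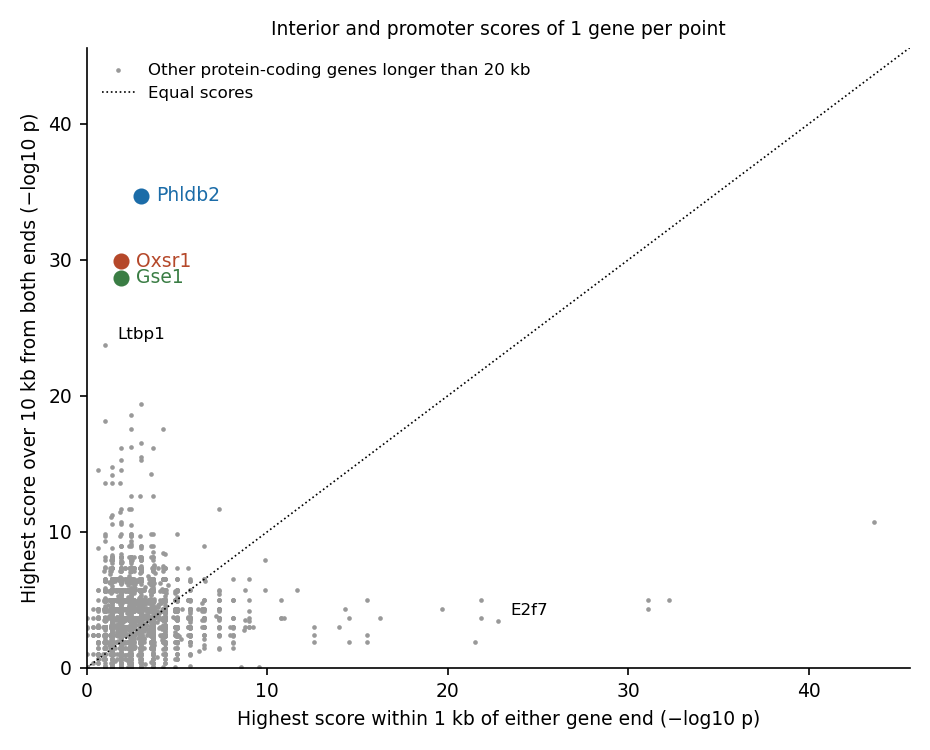
Highest interior score (more than 10 kb from both ends) against promoter score, both −log10 p, for 10037 protein-coding genes longer than 20 kb, with a dotted line where both are equal. Phldb2, Oxsr1 and Gse1 lie above 28 on the interior axis and at or below 3.02 on the promoter axis, whereas E2f7 lies at 3.45 and 22.8.

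Genes that work with the members were then examined for sites of their own. The lists were drawn up from general knowledge, but with earlier results of these data known, so their counts are given as a description. Of 21883 protein-coding genes, 100 (0.457%) held a called region in the gene or within 1 kb of it. Among the 10037 longer than 20 kb, 55 (0.548%) did. Of 17 partners of PHLDB2 in attaching microtubules and adhesions to the cell cortex, 1 did (5.88%), Iqgap1, which encodes a scaffold protein that links actin and microtubules at the cortex. Its region was also an interior one, 259 bp long, with a summit at 80793926 on chromosome 7 that lay 21623 bp from the nearer end. The score there was 12.6 from 20 reads (8.21-fold), and the promoter score of Iqgap1 was 3.65. The next highest score of the list was 8.13, in Ppfibp1, the gene of a liprin, without a called region. The closest relatives of Phldb2 had no called region. Phldb1 had a highest score within the gene of 1.90 and a promoter score of 0.999, and Phldb3 had 2.44 and 3.02, while within the genes of the CLASP proteins the score reached 5.61 (Clasp1) and 3.02 (Clasp2).

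Neither of the other 2 lists held a called region. Among 17 genes of the WNK-OXSR1 pathway the highest score was 7.31, in Wnk1, which encodes a kinase that activates OXSR1. Stk39, the gene of the kinase most closely related to OXSR1, reached 5.75. Among 14 genes around the KDM1A-CoREST complex the highest score was 5.75, in Rcor3, a CoREST family member, and Kdm1a itself, the histone demethylase, reached 3.65. A score of at least 5 occurred in 9 cortical genes (52.9%), 8 of the WNK pathway (47.1%) and 3 around KDM1A (21.4%), against 13.9% of all protein-coding genes and 25.3% of those longer than 20 kb. The listed genes were long, with median lengths of 77008, 83703 and 47645 bp where that of all protein-coding genes was 17170 bp and that of genes longer than 20 kb was 49210 bp. The part of gene length in these shares was not tested. At a lower cutoff of 3, 448 protein-coding genes (2.05%) held a region, and so did 2.93% of those longer than 20 kb. In the lists, 2 cortical genes, 1 of the WNK pathway and 0 around KDM1A held one. No gene of the 3 lists had a promoter score of 5, the highest in each being 4.31, and their median promoter scores of 2.44, 2.44 and 1.90 stood beside a median of 2.44 over all genes.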

How the data were processed

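TBX3 ChIP and Input libraries of primary mouse hepatocytes were sequenced on an Illumina instrument. The submitters' processing notes name Bowtie2, SAMtools, MACS2 and mm10, and versions were not given in the sources used here. The authors deposited 1 track of −log10 p-values of ChIP against Input (110667813 intervals), in which libraries are not given apart, so the depth of each is unknown. The 21 main chromosomes were used, with gene extents from RefSeq (GRCm38.p6, the same build).

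Regions were runs with a score of at least 5, gaps of up to 30 bp joined, and at least 200 bp long. The score was taken as the Poisson tail of a whole pileup over an expected level, and the pairs of values with the fewest changes along the sequence were chosen, with an Input scale of 0.835 and reads extended to 150 bp. This resolved 100% of bases around the members. In a simulation over 600 kb, 100% of bases had the right pileup, and of 10 sites each with 12, 24 or 36 added reads 0, 3 and 9 were called. The simulated scores were made with the same model at known levels, so their recovery checks the code and not the fit to the track. In the track, the summits of 11 of the 125 regions could not be resolved. Reads may be pairs that are not independent, which Poisson intervals do not cover.

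The 3 genes and the partner lists were chosen with earlier results of these data known. Named genes were the members, listed genes with a called region or the highest score of their list, genes nearest the rule's limits, E2f7 and E2f8, and genes at or nearest a summit. Ppfibp1, Phldb1, Phldb3, Clasp1, Clasp2, Stk39, Slc12a3, Kdm1a, Plcxd2, Gm15638, Txnrd1, Snx29, Pard3, Cmss1 and Filip1l were named after their values were seen. The work used scipy 1.17.1, numpy 2.4.6, pandas 2.3.3 and matplotlib 3.10.9 under Python 3.11.15.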

Additional observations from a re-analysis of the deposited data

How the results depend on the processing

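Of 53 alternative values computed, 40 stayed close to the reported value, 13 did not, and 0 reversed. Close meant within the counting interval for scores and shares, within 1.5 times for counts of regions or genes, and equal for the medians of the lists. When each read pair was taken as 1 observation, so that pileup and expected level were both divided by 2, the summit scores became 18.4 in Phldb2, 15.96 in Oxsr1 and 14.8 in Gse1, and the differences from the promoters 16.3, 14.5 and 13.3. Whether the pileup counts pairs as separate reads cannot be told from the track. The number of regions in the genome was not among these values, and it moved from 125 to 773 with a score of 3 required, to 29 with a score of 10, to 640 when 100 bp sufficed and to 170 when wider gaps of 100 bp were bridged. With a cutoff of 10 in place of 5, Gse1 held 1 called region instead of 2. Among genes of like length the share with as high an interior score as Gse1 was 0.192% in place of 0.0299%. Both shares were fixed by how the members were picked, and nothing is read from them. With a cutoff of 3, 2 cortical genes (Iqgap1 and Ppfibp1) and 1 gene of the WNK pathway (Slc12a3) held a region. The share was 2.05% of all protein-coding genes and 2.93% of those longer than 20 kb. Windows of 2 kb at the gene ends raised the median promoter score to 3.02 in the cortical list, 3.02 in the WNK list and 2.97 in the KDM1A list. That of all protein-coding genes rose to 2.62, and that of genes longer than 20 kb to 2.94.

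No paired analysis was possible because the track holds no values per library, and for the same reason no replicate was left out. The T-box motif and windows at transcription starts alone were not run, since neither a genome sequence nor strands were used here. The alternative of 20 kb from the gene ends was not applied to Phldb2, whose summit lies 12781 bp from an end. A site of the strength planted at 24 added reads was called in 3 of 10 simulated cases, so the absence of a call at a promoter is not the absence of a weaker site.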
